A study of Mus musculus with 8 samples.

Results

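At day 0 the 129 and CAST alleles of the 5 mouse autosomes 5, 7, 8, 9 and 13 were compared within hybrid embryonic stem cells. A gene was a member if its reads assigned to 129 or CAST summed to at least 40 over the 4 day 0 libraries and if 129 held 5% to 95% of that sum. Of 24421 genes in the tables, 7050 lay on the 5 chromosomes, 3538 of them had 40 such reads, and 2868 were members. The others were 662 genes above the share window and 8 below it. The 129 share of a gene, the percentage of its allele-assigned reads that carried 129 bases, is the measure throughout. Since the day 0 share chose the members, it is described here and not tested.

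The cells were the line CAST/Ei x 129/Sv/Jae, by its name a cross of these strains. However, the median 129 share of genes at day 14 was 0.990 on chromosome 1 and 0.989 on chromosome 3. Both alleles were thus not found across the whole genome. The groups were 6A at day 14, WT at day 14, 6A at day 0 and WT at day 0, with 2 libraries in each, where 6A is the labels' name for a mutation of HNRNPK, an RNA-binding protein. All cultures started as stem cells kept for 2 days on a feeder layer of irradiated mouse embryonic fibroblasts and freed of it before the day 0 harvest. The day 14 cultures were then grown without leukemia inhibitory factor as embryoid bodies and plated on gelatin at day 5. The sources used here do not give the strain of the feeders or whether each genotype is 1 clone.

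In a hybrid cell both alleles of a gene meet the same transcription factors, so an unequal ratio of their RNA is the usual measure of a cis difference, one that lies on the chromosome itself. Embryonic stem cells are commonly grown on fibroblast feeders, which secrete leukemia inhibitory factor and matrix, and RNA from feeder cells left at harvest carries the alleles of the feeder strain. Mapping to a reference that is nearer to one strain, and reads shared between near-identical gene copies, are also known to shift allele ratios. In bulk RNA, fewer cells of a type and less RNA per cell cannot be told apart.

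Total counts ran from 8146684 to 15540163 per library, 29.1% to 31.6% of them assigned to an allele, and the members held 612521 to 1217281 allele reads per library. The summed level of 8 pluripotency markers was 445 to 590 CPM (counts scaled to a fixed library total) at day 14 and 4150 to 4266 at day 0, the samples labelled as stem cells. The summed level of 8 fibroblast markers was 10259 to 14952 CPM at day 14, against 2690 and 2105 in 6A and 1842 and 1868 in WT at day 0, and none of them was at 0 at day 0. The 6 Y-linked genes measured summed to 0.101 CPM in 1 of the day 14 6A libraries and to 0 in the other 3 day 14 libraries. At day 0 they summed to 40.9 and 45.2 CPM in 6A and 26.6 and 26.1 in WT. Thus Y-linked RNA was present in every day 0 library and nearly absent at day 14.

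Hnrnpk (mm10, chromosome 13, 58391142 to 58403343, minus strand), the gene that carries the 6A mutation, had 496 and 519 CPM in 6A and 827 and 658 CPM in WT at day 0. The difference of all reads was -0.58 ± 0.12 on the log2 scale (edgeR adjusted p = 0.040). Such calls depended on the libraries fitted, with 43 members called on all 8 libraries and 3 on the day 0 libraries alone. Hnrnpk is itself a member, with a 129 share of 91.7% and 95.1% in 6A and 89.4% and 93% in WT at day 14, against 92.6% and 94.9% in 6A and 93.4% and 90.2% in WT at day 0. All 8 libraries thus lay far on the 129 side, with the genotypes overlapping at day 0. Of its transcript sequence, 14.3% of 51-base words also occur in transcripts of other genes, so that its share is uncertain.

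The label of 2 alleles held for all of chromosome 13 and for parts of the other 4 chromosomes. Along the chromosomes, the day 14 shares of neighbouring genes fell into long blocks with both alleles and blocks in which 129 held over 90% of the reads. On mm10 the blocks with both alleles were chromosome 5 from 35757880 to 148929320, chromosome 7 from 13003898 to 133123350, chromosome 8 from 3122061 to 84835482, chromosome 9 from 15910189 to 119926587 and chromosome 13 from 3149475 to 120318178. They held 2371 members on chromosomes 5, 7, 9 and 13 and 357 on chromosome 8. A further 138 members lay in 129-only blocks, where they are no comparison of a pair of alleles present in the cells, and 2 had no position. In the 129-only blocks the window kept 138 of 726 genes with 40 reads, whereas it kept 2371 of 2443 and 357 of 366 in the blocks with both alleles.

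**Figure D1:**
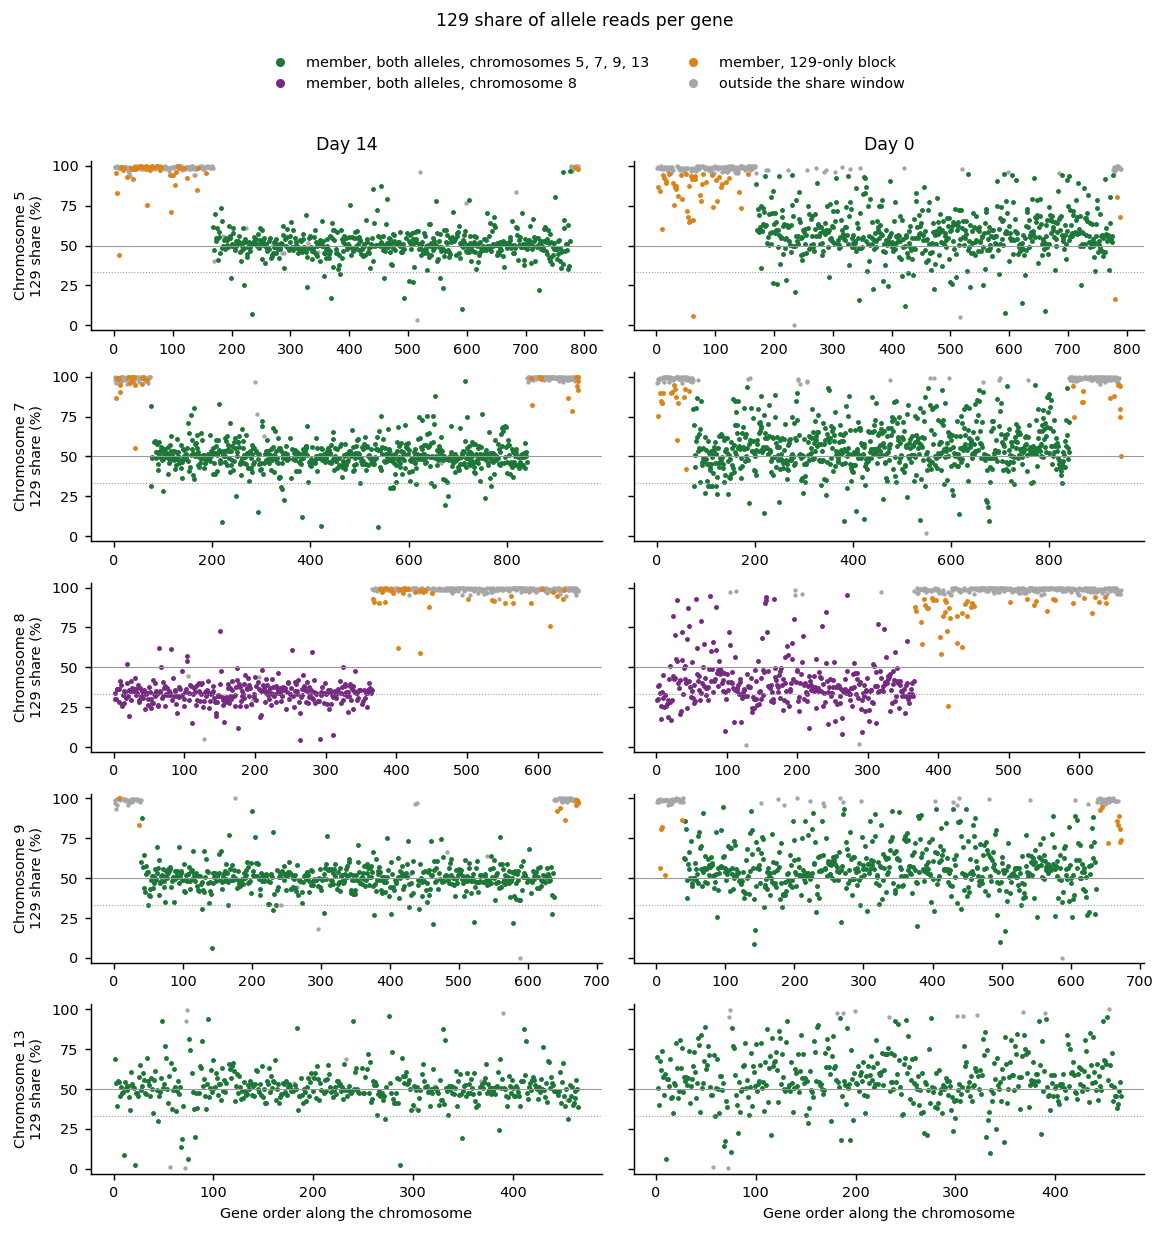
The 129 share of allele reads of each gene in percent, against gene order along the 5 chromosomes, at day 14 (left) and day 0 (right), with members coloured by block and genes outside the share window in grey. Shares gather near 50% on chromosomes 5, 7, 9 and 13, near 34% on the first part of chromosome 8 and near 100% in the 129-only blocks, and they spread more widely at day 0.

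In the blocks with both alleles on chromosomes 5, 7, 9 and 13, the alleles were close to equal at day 14 and 129 was in excess at day 0. The median 129 share was 50.2% and 50.5% in 6A and 50.0% and 50.0% in WT at day 14. At day 0 it was 56.3% and 56.1% in 6A and 54.8% and 54.6% in WT, so that every day 0 library lay above every day 14 library and the 6A libraries above the WT libraries. The quartiles of the members lay at 46.6% and 54.5% at day 14 and at 49.0% and 64.0% at day 0. On each of these chromosomes the median at day 0, over the 4 libraries together, was 54.4% to 56.4%. With 2 libraries against 2, an exact permutation test, two-sided, cannot go below p = 0.333.

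On chromosome 8 the block with both alleles stood apart from the members' other such blocks, with about 1 read in 3 from 129. It lay near the chromosome 6 blocks, which held no members and had median shares of 0.352 and 0.370 at day 14. Its 357 members had a median 129 share of 34.1% and 33.3% in 6A and 33.3% and 34.0% in WT at day 14, against 38.6% and 38.4% in 6A and 37.9% and 37.3% in WT at day 0. In the 129-only blocks the members' median was 97.6% and 98.4% in 6A and 97.8% and 98.4% in WT at day 14, against 86.1% and 87.2% in 6A and 87.8% and 88.3% in WT at day 0. The members of these blocks thus moved in the opposite direction between the days, although the window, which admits only genes under 95% at day 0, fixes part of that. Over all 659 genes of these blocks with 40 reads on each day, members or not, CAST-assigned reads made up 2.01% and 2.09% in 6A and 1.93% and 1.91% in WT at day 14. At day 0 they made up 4.32% and 4.37% in 6A and 3.86% and 3.54% in WT.

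**Figure D2:**
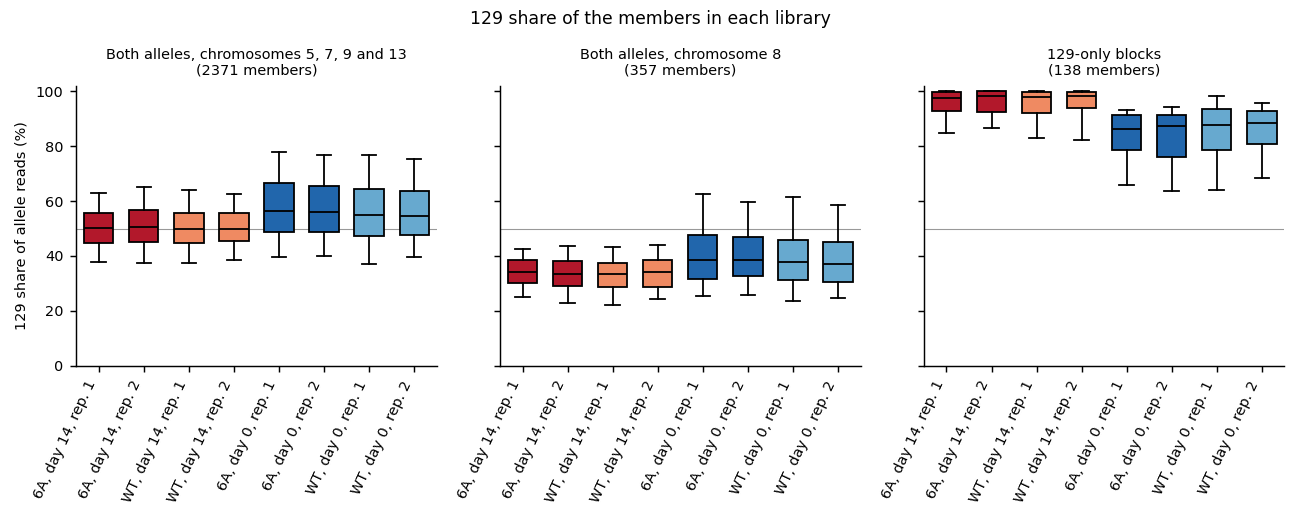
The 129 share of allele reads in percent for the members of the 3 kinds of block in each of the 8 libraries, as boxes of the quartiles with the median as a line and whiskers from the 10th to the 90th percentile of genes. Medians at day 0 sit above those at day 14 in the 2 kinds of block with both alleles and below them in the 129-only blocks.

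The alleles were next tested at day 14, in libraries that did not choose the members. Of 2699 members with 40 reads on that day too, 480 had more 129 than CAST RNA and 579 had less (edgeR adjusted p under 0.05). Among all 11174 genes fitted, 69.4% were called higher and 10.4% lower, most of them in 129-only blocks of other chromosomes. In the blocks with both alleles on chromosomes 5, 7, 9 and 13, 351 of 2232 members were higher and 280 lower. Among all genes of blocks with both alleles outside chromosome 8, on any autosome, 15.2% were higher and 14.6% lower. The members' share of calls, 15.7% higher and 12.5% lower, was near this background, which holds those 2232 members among its 3114 genes. This background also takes in the chromosome 6 blocks, at median 129 shares of 0.352 and 0.370, and short chromosome 4 blocks at 0.890 and 0.613. The background is therefore not one of near-equal blocks only. On chromosome 8, 5 of 339 were higher and 299 lower against an equal ratio, but 46 higher and 54 lower relative to the median of the block. DESeq2 called 669 members where edgeR called 1059.

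Among called genes, those with close copies were frequent. Of members with transcript sequence in these blocks, at least 10% of the 51-base words occur in other genes' transcripts for 53 of 343 called higher (15.5%), 47 of 269 called lower (17.5%) and 48 of 1544 not called (3.11%). Of the genes that the naming rule gives at the extremes of the day 0 shares, 6 of the 10 lowest and 2 of the 10 highest had at least 10% of their words elsewhere. Fst and Plat among the highest had none, and Arsk among the lowest had 1.12%. Hspa8, a heat shock chaperone with 36.0% of its words elsewhere, had a share of 6.47% at day 14 and 8.99% at day 0, summed over 4 libraries each. Rpl18, a ribosomal protein with 11.1% of its words elsewhere, had 6.53% at day 14 and 10.5% at day 0. Idi1, of isoprenoid synthesis, and Chchd2, a mitochondrial protein, lay at 8.65% and 10.4% at day 14 and at 5.86% and 7.74% at day 0. On the other side Uqcrb, a subunit of respiratory complex III with 25.0% of its words elsewhere, had 95.9% at day 14 and 94.8% at day 0. These shares are uncertain, since reads of a copy may carry the base that assigns them.

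Members without such copies were read for allele differences present in the stem cells and the differentiated cultures. The part of read mapping in these shares was not tested. Of the 1612 members in the same blocks with fewer than 10% shared words and at least 200 allele reads at day 0, 205 had 129 above 50% in every day 0 library and were called higher at day 14, and 68 had 129 below 50% in every day 0 library and were called lower at day 14. Of the same 1612, 834 lay above 50% and 220 below in every day 0 library, while 243 were called higher and 187 lower at day 14, so the imbalance of the joint counts is on the day 0 side. Only the day 14 side of these counts is a test. The median share of the 205 was 59.1% at day 14 and 64.8% at day 0, and that of the 68 was 40.1% at day 14 and 38% at day 0. A ratio of at least 2 to 1 in all 8 libraries was seen in 13 members on the 129 side and 4 on the CAST side. The genes named next were not chosen by that ratio, and Gpi1, Picalm and Eif3f fall short of it in some libraries. They were chosen after their values were seen, apart from those that the naming rule gives as well.

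Ube2m, which passes the ubiquitin-like protein NEDD8 to cullins, had a 129 share of 79.2% and 81.1% in 6A and 81.9% and 85.8% in WT at day 14. At day 0 it had 82.2% and 78.9% in 6A and 87% and 75.5% in WT. The 2 days overlapped, and the log2 ratio of 129 to CAST at day 14 was 2.19 ± 0.14 (edgeR adjusted p = 3.26e-54). Pdap1, a PDGF-associated phosphoprotein, had 79.3% and 83.2% in 6A and 76.5% and 82.8% in WT at day 14, against 79.6% and 84.1% in 6A and 79.7% and 71.3% in WT at day 0 (day 14 log2 ratio 2.05 ± 0.19, edgeR adjusted p = 5.88e-27). Its days overlapped too. Lamtor1, a lysosomal subunit of the Ragulator complex, followed with 1.61 ± 0.19 at day 14 (edgeR adjusted p = 1.17e-17). Glrx, a glutaredoxin, had 2.11 ± 0.36 (edgeR adjusted p = 1.05e-08) and Dynll1, a dynein light chain, 2.78 ± 0.45 (edgeR adjusted p = 8.05e-10). Dynll1 rested on 112 allele reads at day 14, and the 95% Wilson interval of its share reached 18.1 points to either side in a single library. Smaller but well measured, Gpi1, the glycolytic glucose-6-phosphate isomerase, had shares of 58.1% to 61.9% at day 14 and 60.0% to 64.6% at day 0.

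On the CAST side, Actb, cytoplasmic beta-actin, had a 129 share of 20.9% and 23.0% in 6A and 21.4% and 23.3% in WT at day 14. At day 0 it had 23.9% and 25.5% in 6A and 23.4% and 26.5% in WT, so CAST was well in excess in all 8 libraries. Its log2 ratio at day 14 was -1.81 ± 0.07 (edgeR adjusted p = 1.56e-163), and 8.49% of its words occur elsewhere. Slc1a5, a glutamine transporter, had 28.2% and 31.9% in 6A and 30.7% and 23.4% in WT at day 14, against 25.5% and 24.8% in 6A and 29.4% and 29.2% in WT at day 0 (day 14 log2 ratio -1.34 ± 0.13, edgeR adjusted p = 8.73e-26). Eif3f, a translation initiation factor, had -2.0 ± 0.14 (edgeR adjusted p = 8.29e-47), with shares of 15.8% to 25.8% at day 14 and 16.5% to 33.5% at day 0. Khdc3, of the oocyte subcortical maternal complex, had -1.46 ± 0.24 (edgeR adjusted p = 1.49e-09), and Morf4l1, a chromodomain protein of histone acetyltransferase complexes, -1.18 ± 0.17 (edgeR adjusted p = 8.06e-12). Picalm, a clathrin adaptor, was on the CAST side at both times, but its share was 29.0% to 32.0% at day 14 and 42.6% to 46.3% at day 0, without overlap.

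**Figure D3:**
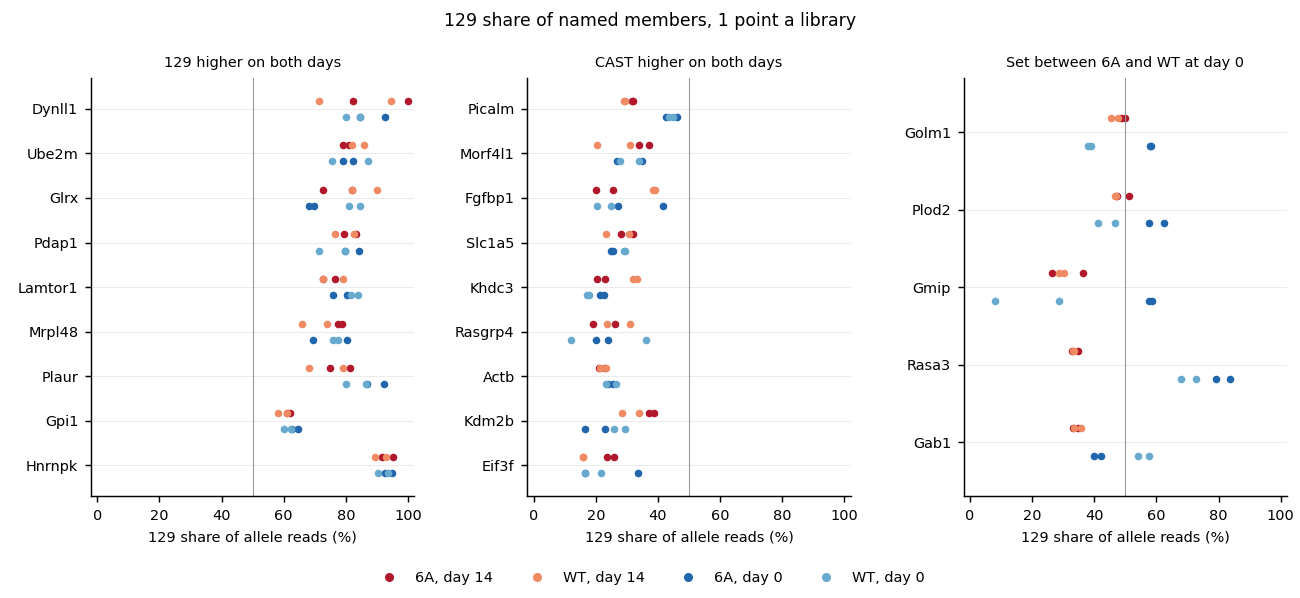
The 129 share of allele reads in percent for named members, with 1 point for each of the 8 libraries, day 14 points above day 0 points. The left panel holds genes with 129 in excess and the middle panel genes with CAST in excess on both days, and the right panel holds the 5 members called between 6A and WT at day 0, where the 6A and WT points of Golm1 lie at 58.0% to 58.3% and 37.9% to 38.9%.

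Within the chromosome 8 block some genes held a ratio unlike their neighbours at day 14. Zfp42 (also called Rex1), a pluripotency marker, had a 129 share of 46.6% and 48.1% in 6A and 51.3% and 46.2% in WT at day 14, against 47.9% and 50.5% in 6A and 48.9% and 45.4% in WT at day 0. It was thus near equal in all 8 libraries, and at day 14 it lay 0.85 ± 0.10 above the block median on the log2 scale (edgeR adjusted p = 1.82e-16). Lpl, lipoprotein lipase, lay 0.83 ± 0.08 above it (edgeR adjusted p = 3.75e-25), and Gsr, glutathione reductase, 0.34 ± 0.11 (edgeR adjusted p = 0.00224). At day 0 the summed 129 share of Lpl was 38.8%, near the block's day 0 median of 37.9%. Tlr3, a receptor for double-stranded RNA, lay below the day 14 block median, at -1.52 ± 0.44 (edgeR adjusted p = 0.000667), although its share was 11.8% to 25.8% at day 14 and 87.1% to 96.3% at day 0.

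The change of the 129 to CAST ratio between the days was tested next. Its day 0 side is among the values that chose the members, so these counts are no independent support for the day 0 shares. Over all blocks the ratio was higher at day 14 for 163 members and lower for 680 of 2699 (edgeR adjusted p under 0.05), against 13.6% higher and 12.4% lower among all genes fitted. In the blocks with both alleles on chromosomes 5, 7, 9 and 13, it was higher for 79 and lower for 580 of 2232, or 3.54% and 26.0%. Over all genes of blocks with both alleles outside chromosome 8, on any autosome and with chromosome 6 included, it was higher for 3.4% and lower for 28.7%. The split was thus not particular to chromosomes 5, 7, 9 and 13. The median log2 ratio of genes in all those blocks was 0 at day 14 and 0.40 and 0.39 in 6A and 0.28 and 0.31 in WT at day 0. With each library centred on that median, the split over all 2699 members was 455 higher and 377 lower, in place of 163 higher and 680 lower.

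Members whose total RNA was higher at day 14 held the larger 129 excess at day 0. Members that were 2- to 8-fold lower in total at day 14, 411 genes, had a median 129 share of 50.2% at day 14 and 51.7% at day 0, and the ratio was called lower in 10.5% of them. Among the 1431 members within 2-fold, the medians were 50.2% at day 14 and 55.3% at day 0, with 24.0% called lower. Among the 339 members 2- to 8-fold higher they were 50.6% at day 14 and 65.4% at day 0, with 52.2% called lower. These calls use the day 0 shares that chose the members, so they are no independent support for the day 0 medians. The 24 members at least 8-fold lower had medians of 52.0% at day 14 and 51% at day 0, and the 27 at least 8-fold higher had 51.9% at day 14 and 66.8% at day 0. The day 14 medians thus stayed between 50.2% and 52.0% across the classes, while the day 0 medians of the 2 higher classes lay above those of the other 3. Across genes, which are not independent replicates, the day 14 and day 0 shares had a Pearson r of 0.62 (n = 435) among members at least 2-fold lower and 0.18 (n = 366) among those at least 2-fold higher, where both shares come from the same references and assignment.

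**Figure D4:**
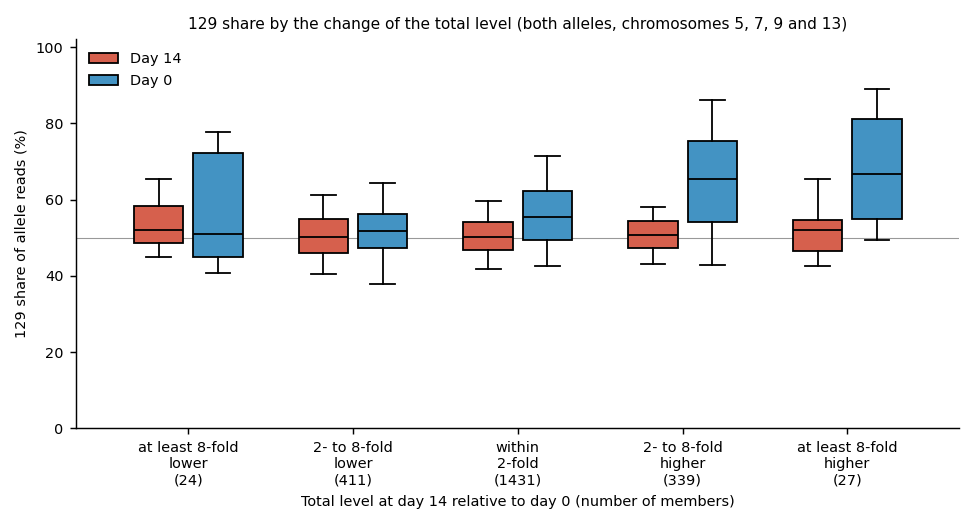
The 129 share of allele reads in percent at day 14 (left box of each pair) and day 0 (right box) for members of the two-allele blocks on chromosomes 5, 7, 9 and 13, in classes of the change of total RNA at day 14 relative to day 0. Boxes are quartiles with the median and whiskers reach the 10th and 90th percentiles, and the day 0 median is 51.7% in the 411 members 2- to 8-fold lower and 65.4% in the 339 members 2- to 8-fold higher.

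A 129 share of at least 2/3 in every day 0 library was found for 413 members, and one of at most 1/3 for 107. In the blocks with both alleles on chromosomes 5, 7, 9 and 13 these were 286 (12.1%) and 55 (2.32%). Without the share window, such shares were found for 15.0% and 3.04% of genes in blocks with both alleles outside chromosome 8, on any autosome. That set takes in the members of these blocks themselves and the chromosome 6 blocks, where 129 held a lower share. Of the 264 of the 286 that could be tested at day 14, 94 were called higher for 129, 21 lower and 149 neither, and their median share was 54.1% at day 14 and 80.5% at day 0. Of the 48 of the 55 that could be tested, 36 were called lower, and their median share was 28.6% at day 14 and 20.7% at day 0. Of the 55, 53 had transcript sequence, and 22 of these had at least 10% of their words in other genes' transcripts. Of the 286, 273 had transcript sequence, and 24 of these had as many. The shares of genes with such copies are uncertain on both days. The genes at the edge of the window included Prkag2, a subunit of AMP-activated kinase, at 94.9% inside it and Tgfbi, an extracellular matrix protein, at 95.1% outside it, and at the low edge Idi1 at 5.86% inside and Ppp1cc at 4.91% outside. There were 10 members with 40 allele reads and 11 genes with 39 that were left out.

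Genes of fibroblasts and mesenchyme, the cell type of the feeders, were followed as a list that was drawn up with results of these data known. Of its 110 genes in the tables, 73 lay on the 5 chromosomes, 64 had 40 allele reads at day 0, 17 were above the share window and 47 were members. The list summed to 42659 to 49375 CPM at day 14, against 17007 and 16635 in 6A and 13835 and 14120 in WT at day 0. Among the 36 members in the blocks with both alleles on chromosomes 5, 7, 9 and 13, the median 129 share was 50.0% and 47.2% in 6A and 48.7% and 48.8% in WT at day 14. At day 0 it was 69.8% and 67.2% in 6A and 66.8% and 63.8% in WT, well above the members as a whole. The ratio was lower at day 14 for 21 of the 36 and higher for 7, beside 26.0% lower and 3.54% higher over the 2232 members of these blocks. Of the 36, 14 had a share of at least 2/3 in every day 0 library while 3 had at most 1/3. Over all blocks, 25 of 46 tested were lower and 10 higher. At day 14 itself 4 of the 36 were called higher and 9 lower, beside 15.7% and 12.5% of the 2232 members of these blocks. The part of feeder RNA in these shares was not tested. The Y-linked sum given above was higher at day 0 than at day 14, as these shares were, while the fibroblast marker sum was lower.

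Among matrix genes, Col12a1, a fibril-associated collagen, had 42.5% and 42.5% in 6A and 48.1% and 45.5% in WT at day 14, against 93.6% and 94.0% in 6A and 93.4% and 92.7% in WT at day 0. The days did not overlap, and the log2 ratio was lower at day 14 by a change of -4.12 ± 0.17 (edgeR adjusted p = 2.21e-127) while total RNA was higher by 1.90 ± 0.09. Nid1, a nidogen of basement membranes, had 49.1% and 47.2% in 6A and 46.6% and 47.1% in WT at day 14, against 83.4% and 81.2% in 6A and 78.4% and 79.5% in WT at day 0 (-2.21 ± 0.11, edgeR adjusted p = 5.01e-95). Its 4 day 0 values were again all above the 4 day 14 values.

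Htra1, a secreted serine protease, changed by -4.44 ± 0.36 (edgeR adjusted p = 1.87e-33). Fst, follistatin, which binds activins, changed by -4.77 ± 0.50 (edgeR adjusted p = 6.26e-20). Pcolce, which enhances procollagen processing, changed by -0.91 ± 0.12 (edgeR adjusted p = 9.34e-14). For Htra1, Fst and Pcolce alike, every day 0 library held a higher 129 share than every day 14 library. The same was seen for Igf1r, the receptor of insulin-like growth factor 1, with 49.5% to 52.2% at day 14 and 78.6% to 88.7% at day 0 (-2.34 ± 0.13, edgeR adjusted p = 6.87e-66), and, outside the list, for P2rx4, an ATP-gated channel (-3.75 ± 0.42, edgeR adjusted p = 1.43e-17).

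Spp1 (mm10, chromosome 5, 104435118 to 104441050, plus strand), which encodes the secreted phosphoprotein osteopontin, departed from the pattern of total levels. It had 56.7 and 56.9 CPM in 6A and 80.8 and 89.5 CPM in WT at day 14, against 1906 and 1899 CPM in 6A and 1887 and 1519 CPM in WT at day 0. Its 129 share was 46.3% and 44.4% in 6A and 51.5% and 52.4% in WT at day 14, against 92.6% and 92.2% in 6A and 92.5% and 92.3% in WT at day 0. The ratio changed by -3.68 ± 0.11 (edgeR adjusted p = 1.77e-253), and with 83332 allele reads at day 0 the Wilson interval of its share was at most 0.434 points to either side. It was thus among the best measured members, high in total and in 129 share in all 4 day 0 libraries.

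In the chromosome 8 block, where 129 held about 1 read in 3, the collagen IV pair was read side by side. Col4a2 had a 129 share of 37.3% and 37.0% in 6A and 35.4% and 36.2% in WT at day 14, against 90.9% and 93.6% in 6A and 90.5% and 93.2% in WT at day 0. Col4a1, its neighbour, which is transcribed the other way from an adjoining start, had 36.4% and 36.4% in 6A and 33.9% and 36.4% in WT at day 14, against 58.0% and 55.7% in 6A and 61.5% and 50.2% in WT at day 0. Both lay near the block median at day 14 and above it at day 0, and Col4a2 lay above Col4a1 in every day 0 library. Their ratios changed by -4.39 ± 0.13 (edgeR adjusted p = 6.33e-229) and -1.17 ± 0.12 (edgeR adjusted p = 3.94e-22), and the annotated gene spans overlap by a few bases.

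Other members of that block had a high 129 share at day 0. Gas6, a ligand of the TAM receptor kinases, had 32.6% and 34.4% in 6A and 34.3% and 33.4% in WT at day 14, against 90.7% and 89.8% in 6A and 83.7% and 83.6% in WT at day 0 (-3.76 ± 0.14, edgeR adjusted p = 1.31e-162). Its 6A libraries lay above its WT libraries at day 0. Hmox1, heme oxygenase 1, had 30.8% to 34.4% at day 14 and 45.6% to 48.9% at day 0 (-0.87 ± 0.13, edgeR adjusted p = 7.65e-11). Plat, tissue plasminogen activator, changed by -5.26 ± 0.34 (edgeR adjusted p = 2.77e-51), Tlr3 by -6.15 ± 0.66 (edgeR adjusted p = 1.69e-19), Kbtbd11 by -5.04 ± 0.47 (edgeR adjusted p = 4.70e-25), Fam149a by -5.50 ± 0.39 (edgeR adjusted p = 8.27e-43), Cyp4v3, a cytochrome P450, by -4.23 ± 0.41 (edgeR adjusted p = 4.53e-24) and Irf2, an interferon regulatory factor, by -4.38 ± 0.45 (edgeR adjusted p = 2.10e-21). Plat, Tlr3, Kbtbd11, Fam149a, Cyp4v3 and Irf2 were among the 10 largest falls of the ratio in members with 100 reads on each day, and for each of the 6 every day 0 library lay above every day 14 library. These 6 were named for the size of that fall. Their p-values and the order of the days are thus no independent support for it.

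Other fibroblast genes went the opposite way, with a larger CAST share at day 0 than at day 14. Serpinh1, the collagen chaperone HSP47, had a 129 share of 49.9% and 46.8% in 6A and 49.3% and 48.4% in WT at day 14, against 25.2% and 22.2% in 6A and 27.3% and 29.1% in WT at day 0. Its ratio rose by 1.43 ± 0.11 at day 14 (edgeR adjusted p = 6.48e-37), with no overlap between the days. Ctsl, the lysosomal protease cathepsin L, had 47.9% and 48.1% in 6A and 43.8% and 49.1% in WT at day 14, against 20.5% and 22.2% in 6A and 26.3% and 22.8% in WT at day 0 (1.60 ± 0.13, edgeR adjusted p = 2.37e-33). Tgfbr2, a receptor of TGF-beta, changed by 1.28 ± 0.21 (edgeR adjusted p = 6.42e-09), and Fosb, a subunit of the AP-1 transcription factor, by 1.33 ± 0.16 (edgeR adjusted p = 5.92e-15). Tpm1, a tropomyosin, rose less, by 0.48 ± 0.11 (edgeR adjusted p = 7.18e-05), and turned negative with libraries centred on the autosomal median (-0.20). Serpinh1, Ctsl, Tgfbr2 and Fosb were chosen after their values were seen. Outside the list, Apoe, apolipoprotein E, rose by 0.46 ± 0.12 (edgeR adjusted p = 0.000901), but not in DESeq2 (adjusted p = 0.0918), and turned negative under the same centring (-0.22). Arsk, arylsulfatase K, had shares of 30% to 40% at day 14 and 8.43% to 12.8% at day 0 (2.17 ± 0.45, edgeR adjusted p = 1.14e-05).

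**Figure D5:**
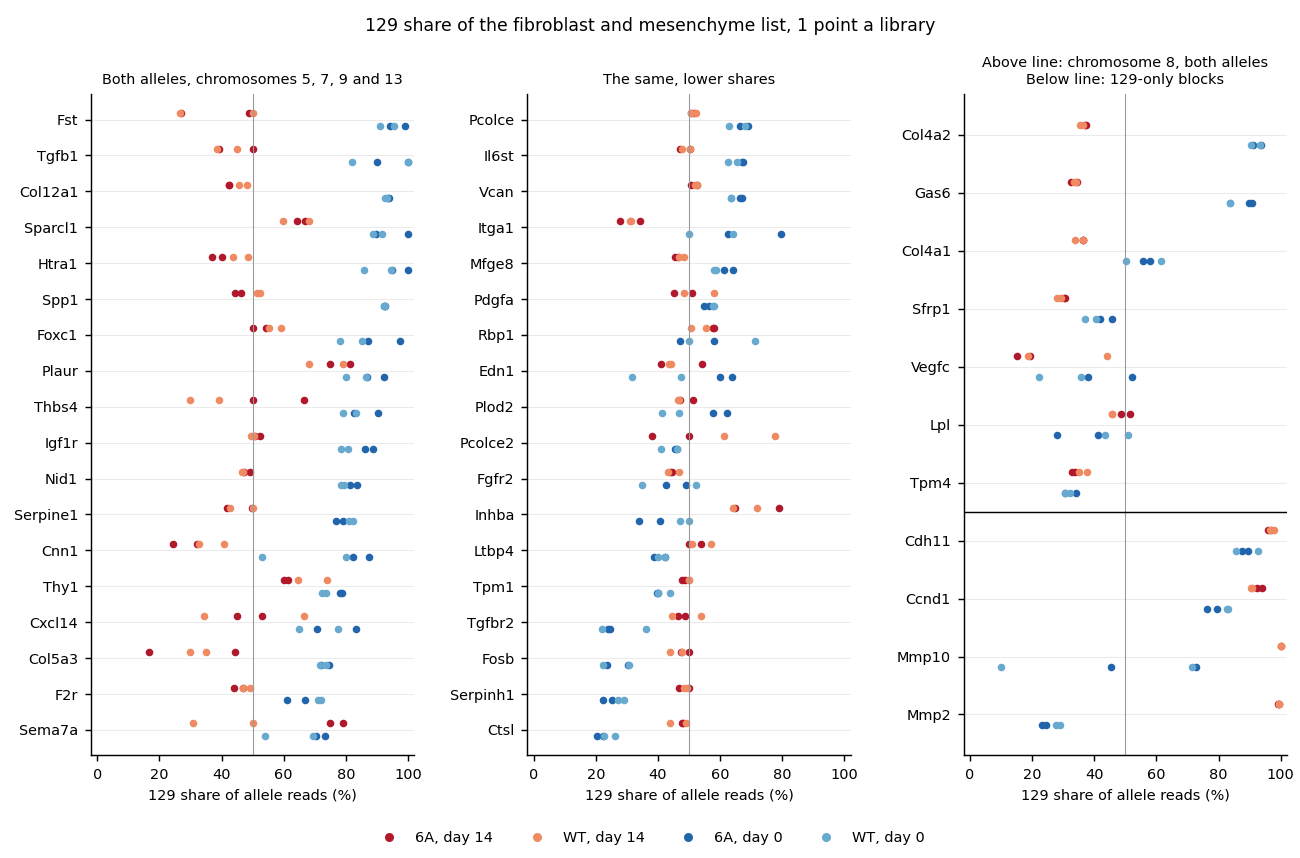
The 129 share of allele reads in percent for the 47 members of the fibroblast and mesenchyme list, 1 point per library, day 14 points above day 0 points, in order of the day 0 share within each kind of block. In 23 of the 47 every day 0 library lies above every day 14 library, and in 11 every day 0 library lies below.

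CAST reads held a larger share of the 129-only blocks at day 0 than at day 14. Over the 659 genes with 40 reads on each day, they made up 1.91% to 2.09% per library at day 14 and 3.54% to 4.37% at day 0. Single genes differed far more. Mmp2 (mm10, chromosome 8, 92827291 to 92853420, plus strand), gelatinase A, a protease of the matrix, had a 129 share of 99.2% and 99.4% in 6A and 99.3% and 99.4% in WT at day 14, against 23.2% and 24.4% in 6A and 29.1% and 27.7% in WT at day 0. Most of its day 0 reads were thus CAST-assigned at a locus where the day 14 libraries held almost none, and its ratio changed by 8.69 ± 0.13, with an edgeR adjusted p too small to be written as other than 0. Junb, an AP-1 subunit, had 99% and 99.4% in 6A and 99.3% and 99.6% in WT at day 14, against 60.6% and 58.1% in 6A and 64.7% and 73% in WT at day 0 (6.27 ± 0.17, edgeR adjusted p = 1.93e-285). Fto, an RNA demethylase, changed by 5.41 ± 0.27 (edgeR adjusted p = 5.24e-85), Adcy7, an adenylyl cyclase, by 6.77 ± 0.66 (edgeR adjusted p = 2.17e-23), Casp12, a caspase, by 7.06 ± 1.06 (edgeR adjusted p = 2.83e-10) and Ccnd1, cyclin D1, by 1.46 ± 0.18 (edgeR adjusted p = 1.39e-14). Members of these blocks passed the window only through their CAST reads at day 0. A rise of the ratio at day 14 was thus partly fixed by that choice, and these p-values are no independent support for it. The counts that follow take in genes of these blocks whatever their day 0 share. Of the 659 genes of these blocks with 40 reads on both days, 17 had over 10% CAST reads at day 14 and 80 at day 0, and the ratio was higher at day 14 for 101 and lower for 3. Over the 129-only blocks of all autosomes, 274 of 7331 such genes had over 10% CAST reads at day 14 and 956 at day 0, with the ratio higher for 1398 and lower for 49. What carried these CAST reads was not tested.

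Pluripotency genes are known to be expressed in stem cells and mostly silent in fibroblasts. In the blocks with both alleles on chromosomes 5, 7, 9 and 13, 5 members of the list were tested, and the ratio was lower at day 14 for Spp1 and Tbx3 and passed in neither direction for the other 3. Spp1 is on the fibroblast list as well. Tdgf1, the Nodal coreceptor Cripto, had 48.1% and 48.6% in 6A and 49.3% and 54.0% in WT at day 14, against 46.9% and 48.1% in 6A and 46.5% and 47.0% in WT at day 0. Dppa5a, with 37.8% of its words elsewhere, had 52.7% to 57.2% at day 14 and 48.7% to 57.7% at day 0. Tdgf1 and Dppa5a lay within 10 points of an equal share in every library. The 5 were not all near equal, since their lowest summed share was 38.8% at day 14 and 35.3% at day 0. Those values lie below the shares of Spp1, Tdgf1 and Dppa5a. Dppa5a was called higher for 129 at day 14 (0.30 ± 0.11, edgeR adjusted p = 0.00614), a call lost in DESeq2 and without WT replicate 2 of day 14 (adjusted p 0.0990 to 0.125). Tbx3, a T-box transcription factor, had a change of -0.45 ± 0.17 (edgeR adjusted p = 0.030), which did not pass when any of 5 libraries was left out or under 2 other settings (adjusted p 0.0664 to 0.761). The libraries were 6A replicate 1 and WT replicate 2 of day 0, and 6A replicate 2 and both WT replicates of day 14. Fgf4, a growth factor of stem cells in a 129-only block, had 92.2% to 95.2% at day 14 and 92.9% to 96.6% at day 0.

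The 129 to CAST ratio at day 0 was then set between the genotypes, a contrast that the choice of members did not use. Of 2868 members, 4 had a higher ratio in 6A and 1 a lower one (edgeR adjusted p under 0.05), against 0.0417% higher and 0.133% lower among all genes fitted. DESeq2 called none, with 27 members at an unadjusted p under 0.05 where edgeR had 153. With one day 0 library left out, edgeR called 2 members without 6A replicate 1, 1 without 6A replicate 2, 8 without WT replicate 1 and 2 without WT replicate 2. Without regard to a test, the share was higher in both 6A than in both WT libraries for 674 of 2868 members and lower for 380. Among all 12000 genes with 40 reads, most of them in 129-only blocks, it was higher for 1816 (15.1%) and lower for 1980 (16.5%). The kinds of block differed, with 572 higher and 292 lower of 2371 members in the two-allele blocks of chromosomes 5, 7, 9 and 13. In the 129-only blocks 15 of 138 members were higher and 45 lower. Neither the change of this difference with the day nor the genotype difference at day 14 was called for any member by edgeR or DESeq2, with 105 and 71 members at an unadjusted p under 0.05 by edgeR and 14 and 6 by DESeq2.

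Golm1, a Golgi membrane protein on chromosome 13, had a 129 share of 58.3% and 58.0% in 6A and 38.9% and 37.9% in WT at day 0. At day 14 it had 49.9% and 48.5% in 6A and 47.5% and 45.5% in WT, so that the genotypes lay far apart at day 0 and close together at day 14. The day 0 ratio differed by 1.16 ± 0.19 (edgeR adjusted p = 5.38e-06) and passed without any single library, though not in DESeq2 (adjusted p = 0.630). Its total was 69.4 and 71.1 CPM in 6A and 105 and 101 CPM in WT at day 0 (-0.58 ± 0.12, edgeR adjusted p = 0.0311). The day by genotype term of its ratio was -1.0 with an edgeR adjusted p of 0.531, so a difference between the days was not shown.

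Gab1, a docking protein of receptor kinases in the chromosome 8 block, had 42.3% and 39.9% in 6A and 57.5% and 54.0% in WT at day 0, where the block's median over the 4 libraries was 37.9%. At day 14 it had 34.9% and 33.1% in 6A and 35.7% and 33.6% in WT. The day 0 difference was -0.85 ± 0.16 (edgeR adjusted p = 0.00022), and it did not pass without 6A replicate 2 of day 0 (-0.78, adjusted p = 0.216) or in DESeq2. Its total was 409 and 466 CPM in 6A and 259 and 278 CPM in WT at day 0 (0.67 ± 0.11, edgeR adjusted p = 0.00957). Both genotypes lay on separate sides of an equal ratio at day 0 and overlapped at day 14.

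Plod2, a lysyl hydroxylase of collagen, had 57.7% and 62.3% in 6A and 46.8% and 41.2% in WT at day 0 (0.96 ± 0.22, edgeR adjusted p = 0.0169). Rasa3, a GTPase-activating protein of Ras and Rap, had 83.5% and 79.2% in 6A and 72.8% and 68.0% in WT (0.90 ± 0.23, edgeR adjusted p = 0.0491). Gmip, a GTPase-activating protein, had 57.6% and 58.5% in 6A and 28.6% and 7.89% in WT (2.88 ± 0.71, edgeR adjusted p = 0.0363), on 133 allele reads in all, with a Wilson interval of up to 18.1 points to either side. None of these 3 passed without 6A replicate 1 (adjusted p 0.0591 for Plod2, 0.894 for Rasa3 and 0.298 for Gmip), without 6A replicate 2 (0.789, 0.216 and 0.610 in the same order) or without WT replicate 2 of day 0 (0.504, 0.777 and 0.948). Rasa3 also failed to pass without 6A replicate 1 or 2 of day 14 (0.0564 and 0.0558). The fibroblast marker sum and the Y-linked sum given above were higher in both 6A libraries than in both WT libraries at day 0, and their part in these differences was not tested.

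In total RNA at day 0, 23 members were higher and 20 lower in 6A (edgeR adjusted p under 0.05), against 1.06% and 0.518% of all 15458 genes tested. The count rested on single libraries, with 8 members called without 6A replicate 1 of day 0, 4 without 6A replicate 2, 111 without WT replicate 1 and 26 without WT replicate 2. Leaving out a day 14 library gave 22 and 21 without 6A replicates 1 and 2, and 14 without either WT replicate. Hnrnpk, Golm1 and Gab1 were among the 43, while a fit on the day 0 libraries alone called 3 members in all.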

How the data were processed

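Per the labels' protocols, ribosomal RNA was removed from total RNA, and strand-specific libraries were read from both ends, 150 bases each. The submitters' processing notes name cutadapt 1.4.2, STAR 2.7.10a and mm10. The deposited tables hold raw counts of all reads and of reads assigned by the authors to CAST and 129. The sources used here do not state the counting tool, its strand setting, the annotation or the allele assignment, so overlapping and antisense genes cannot be told apart.

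Symbols were placed with GENCODE mouse release 21 (2770 members) or RefSeq (96), and 2 were not placed. Blocks came from the median day 14 share of 5 neighbours on each side with at least 20 reads, 129-only above 0.9, in runs of at least 5 genes. Copies were the percentage of a gene's 51-base words found in transcripts of other genes.

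The allele counts were fitted in edgeR 4.0.16 (R 4.3.3) by quasi-likelihood, with a coefficient per library and a log2 ratio of 129 to CAST per group, and p-values were adjusted by Benjamini-Hochberg over all genes fitted. Genes needed 40 allele reads at day 0, and 40 at day 14 where that day enters. Total counts were fitted with TMM and filterByExpr on all 8 libraries. Values ± are log2 ratios and standard errors. Scripts were tested on simulated data. CPM are counts scaled to a common library total, without TMM. Alternatives were DESeq2 1.42.0, other centrings and minimums, autosomes only, the replicate number as a block, WT libraries only, day 0 libraries only, and each library left out. The last alternatives were added after seeing the data, namely the fit on two-allele blocks only, the ratio relative to the block median, and centring on two-allele blocks.

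The members and lists were chosen with earlier results of these data known. Named genes were the 10 highest and lowest day 0 shares with 200 reads and all libraries on 1 side of 0.5, the 10 largest falls and 5 largest rises of the ratio with 100 reads on each day, the 5 smallest adjusted p in each direction between genotypes, up to 6 members of each list by day 0 reads, Hnrnpk and the genes at each threshold, predicted genes passed over. Not all of them are described, and a few are not reported here. The labels call the libraries biological replicates without saying that they are separate cultures, so p-values measure only the spread between these samples. Wilson intervals cover counting error only.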

Additional observations from a re-analysis of the deposited data

How the results depend on the processing

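Setting each library's autosomal median ratio, which rests mostly on 129-only genes, to 0 changed most results by construction. The members called at day 14 became 2645 in place of 1059, those called between the days 1960 in place of 843, and those called between genotypes at day 0 8 in place of 5. The median day 0 share became 5.63% in place of 54.5%, with 0 members at 2/3 or more in place of 413 and 2664 at 1/3 or less in place of 107. Under it the day 14 log2 ratio of named genes turned negative, at -0.48 for Uqcrb, -1.16 for Fgf4, -1.41 for Hnrnpk, -1.54 for Ccnd1, -2.22 for Dynll1, -2.36 for Igf2, -2.85 for Ube2m, -2.91 for Glrx, -2.99 for Pdap1, -3.06 for Ccnb1, -3.11 for Rplp0, -3.43 for Lamtor1, -4.43 for Gpi1 and -4.74 for Dppa5a. The change between the days turned to -0.22 for Apoe and -0.20 for Tpm1. Of 94 calls of named genes, 64 held under every alternative, 16 were lost under some and these 16 turned under this centring, a few being both. Centring on the two-allele blocks gave a median day 0 share of 48.6% and 206 members at 1/3 or less, and without the share window the median was 58.2% with 1075 members at 2/3 or more.

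DESeq2 called 669 members at day 14, 406 between the days and 0 between genotypes, and the WT libraries alone gave 511 between the days. Between genotypes, 3 members were called with no minimum of reads, 2 with day 0 libraries alone and 12 in a fit on two-allele blocks alone. In total counts day 0 libraries alone gave 3 members in place of 43. Leaving out each library gave 883 to 1091 members at day 14, 701 to 830 between the days, 1 to 8 between genotypes and 4 to 111 in total counts. The fibroblast list's 35 calls between the days were 30 to 39 under every alternative. The causes of the other shifts were not tested.

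The labels do not say what a replicate number marks, and each group holds only 2, so the libraries were taken to share a number and no more. Deviations of same-numbered libraries correlated at -0.027 to 0.098 in the allele ratio and at 0.013 to 0.384 in total counts, over 0.1 in 5 of the 6 pairs of groups. With the replicate block, 900 members were called at day 14, 830 between the days, 8 between genotypes and 94 in place of 43 in total counts. Single genes with few reads, such as Dynll1, are limited by depth.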

Other observations

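Other gene groups in the blocks with both alleles on chromosomes 5, 7, 9 and 13 were read at day 14. Of the 2232 members tested there, 15.7% were called higher for 129 and 12.5% lower. Of 37 replication-dependent histone genes tested, 14 were higher and 12 lower, and of 22 ribosomal protein genes 9 were higher and 9 lower (edgeR adjusted p under 0.05). Many of these have close copies, among them Hist1h4i, histone H4, with 28.7% of its 51-base words elsewhere, whose share was 13.6% to 14.1% at day 14 and 13.8% to 14.3% at day 0. Rplp0, of the ribosomal stalk, with 32.5% of its words elsewhere, had 77.7% to 80.6% at day 14 and 75.3% to 78.5% at day 0. Cox7c, a subunit of cytochrome oxidase, with 22.0% of its words elsewhere, had 14.5% to 25.2% at day 14 and 13.2% to 20.8% at day 0. Of 28 genes of DNA repair and the cell cycle, 9 were higher and 2 lower, among them Ccnb1, cyclin B1, with 23.2% of its words elsewhere, at 78.0% to 82.5% at day 14 and 75.8% to 80.9% at day 0.

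Among smaller groups at day 14, 5 of 19 oxidative phosphorylation genes were higher and 4 lower, 5 of 16 mitochondrial ribosomal protein genes higher and 2 lower, 23 of 108 Zfp zinc finger genes higher and 14 lower, and 1 of 23 solute carriers higher and 3 lower. Of 9 hnRNP genes 2 were higher and 3 lower, of 7 Polycomb genes 2 and 2, of 7 glycolysis genes 1 and 1, of 7 interferon genes 2 and 1, and of 5 imprinted genes 1 and 2. Of 5 cytoskeleton genes 2 were higher and 2 lower, of 5 pluripotency genes 1 was higher, and 1 of 4 metallothionein and glutathione genes, 1 of 2 extraembryonic genes and the single gene of the 2-cell list were lower. Kdm2b, the CpG-binding subunit of a variant Polycomb complex, had 28.4% to 38.8% at day 14 (log2 ratio -0.91 ± 0.19, edgeR adjusted p = 1.23e-06) and 16.4% to 29.5% at day 0. Igf2, an imprinted growth factor in a 129-only block, had 85.5% to 88.2% at day 14 and 84.3% to 90.9% at day 0.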
